A study of Mus musculus with 6 samples.

Results

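The mitochondrial genome of the mouse is a small circular DNA that encodes 37 genes, of which 2 give the ribosomal RNAs of the mitochondrial ribosome, 13 give mRNAs and 22 give tRNAs. Its members here were the rows of the count table that GENCODE M21 places on chromosome M, 37 of 55450 rows, all with symbols starting with mt-. The study overexpressed microRNA-125a in haematopoietic stem cells of the LSK/SLAM phenotype and transplanted them into lethally irradiated mice. Each library held RNA of 2000 lineage-negative, Sca+ bone marrow cells sorted 12 weeks later, strain C57BL6/SJL. Both groups had thus been through transplantation. One group had endogenous miR-125a expression and its titles carry the letters EV, the other had miR-125a overexpression. Of 3 libraries per group in the labels, 2 per group were analysed: endogenous 1 and 3, and overexpressed 2 and 3, the other 2 libraries being not analysed here. The labels give neither the vector, its promoter nor the number of mice behind a library, so the p-values cover the spread among libraries alone, and that spread may be technical.

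Mitochondrial DNA is transcribed by its own RNA polymerase, Polrmt, into long transcripts that cover many genes at once. Most mRNAs and both rRNAs are flanked by tRNAs, and cutting out the tRNAs releases them. The transcript read from the plus strand of the annotation carries 28 of the genes, and the minus strand carries mt-Nd6 and 8 tRNA genes, 9 in all. The mRNAs encode core subunits of the respiratory chain and of ATP synthase, which pass electrons to oxygen and make ATP. Their poly(A) tails are short and complete the stop codon where the gene itself ends with only a part of one. By length this held for 3 of 13 mRNA genes, mt-Co3, mt-Nd4 and mt-Cytb, each of which ended in a single T past its last full codon.

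Values of the 4 libraries are given below in the order endogenous 1, endogenous 3, overexpressed 2 and overexpressed 3 unless stated. Their total counts were 654126, 712311, 737431 and 715930. Mir125a itself had 0, 0, 0 and 1 counts, a row that a kit for long RNA need not fill, so the labelled overexpression was not checked by it. The 10 genes listed for stem and progenitor cells held 0.0333%, 0.0392%, 0.054% and 0.0275% of counts. Ly6a, the gene of Sca-1, was low at 1, 0, 1 and 1 counts, as was Procr at 1 in each library. Kit, which the stated sort does not name, had 4, 25, 9 and 5, Slamf1 8, 7, 3 and 6 and Hlf 8, 16, 5 and 10. More counts were found in Flt3 with 56, 37, 242 and 33, and Cd34 with 32, 26, 58 and 38. Ptprc had 19, 115, 51 and 60, Mecom 28, 41, 19 and 31 and Ly6e 61, 11, 9 and 12. Genes of lineages that the sort should remove had counts, and the lists differed in their order over the libraries. Of 5 granule genes Ltf had 4538, 3735, 8490 and 7413 counts, whereas Ngp had 45, 364, 1042 and 28, Camp 14, 241, 617 and 11, Mpo 8, 20, 42 and 8 and Elane 145, 91, 231 and 127. The 3 B-cell markers had 307, 38, 85 and 187 in sum and the 6 erythroid markers 73, 729, 276 and 10, with none at 0 throughout. The library overexpressed 3 stood apart from the other 3 in its mitochondrial counts, and results that rest on it are given with and without it.

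The mitochondrial genes took a similar share of counts in both endogenous libraries, and the highest and the lowest share were both found with overexpression. Mitochondrial rows held 27108, 30074, 46391 and 3993 counts. These were 4.14% (95% Wilson interval 4.10 to 4.19), 4.22% (4.18 to 4.27), 6.29% (6.24 to 6.35) and 0.558% (0.541 to 0.575) of each library, with intervals that cover counting error only. The mean share was 4.18% ± 0.055 (SD, n = 2) with endogenous and 3.42% ± 4.05 (SD, n = 2) with overexpressed miR-125a, so the difference of means, -0.759 percentage points, lay within the spread of the overexpressed libraries. The exact permutation test gave a two-sided p of 1.0, where 2 libraries against 2 can reach no lower than 0.333. Without overexpressed 3 the difference was 2.11 points in the other direction, and without overexpressed 2 it was -3.63 points. In bulk RNA of this kind, fewer mitochondria-rich cells and less mitochondrial RNA per cell cannot be told apart.

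**Figure D1:**
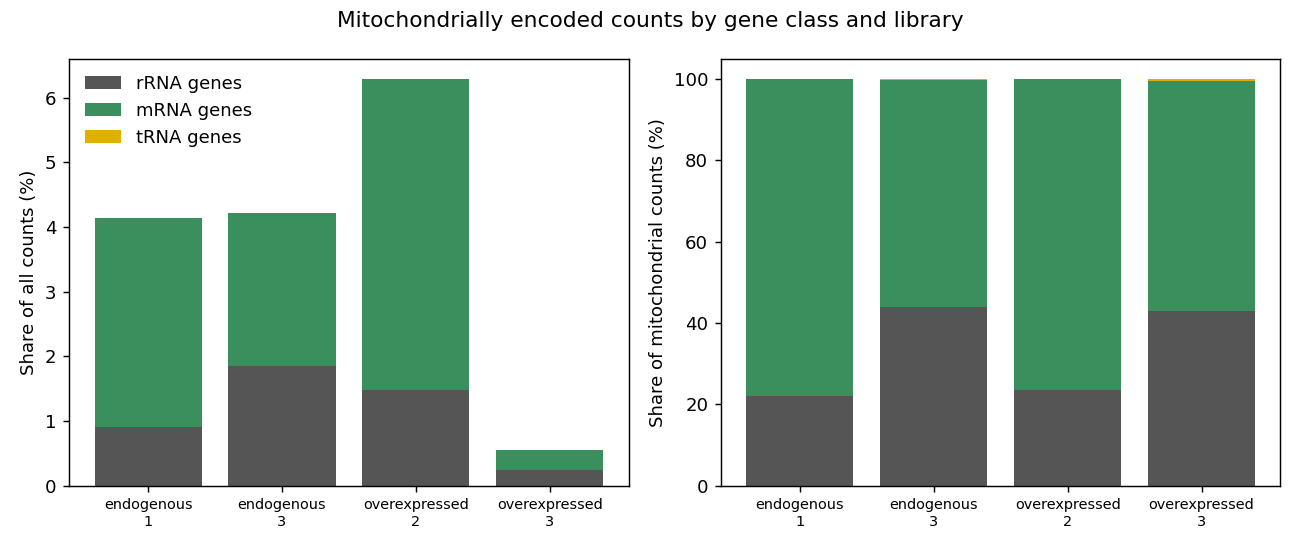
Share of all counts (left, %) and share of mitochondrial counts (right, %) taken by rRNA, mRNA and tRNA genes in each of the 4 libraries, as stacked bars. The total is 6.29% in overexpressed 2 and 0.558% in overexpressed 3, while endogenous 3 and overexpressed 3 have the larger rRNA parts, 44.0% and 43.0%.

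The rRNA and mRNA shares of the mitochondrial counts paired libraries across the groups. The rRNA genes took 22.1% and 44.0% of mitochondrial counts in the endogenous libraries and 23.5% and 43.0% in the overexpressed ones. The mRNA genes took 77.8%, 55.8%, 76.4% and 56.5%, and the tRNA genes 0.0922%, 0.196%, 0.097% and 0.501%. In rRNA and mRNA shares endogenous 1 was thus close to overexpressed 2, and endogenous 3 to overexpressed 3, although the total share of the last pair was 4.22% and 0.558%. Their tRNA shares were apart, with 95% Wilson intervals of 0.152% to 0.253% and 0.325% to 0.772%. None of these shares differed between groups by more than the spread within them. Mean rRNA shares were 33.1% ± 15.5 and 33.3% ± 13.7 (SD, n = 2 each), and over the 4 shares tested the exact two-sided permutation p was 0.667 for tRNA and 1.0 for the other 3 shares, with an adjusted p of 1.0 for each.

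Counts per kb, taken over all genes of a class, put the classes in one order in all 4 libraries. The rRNA genes held 2360, 5218, 4306 and 676 counts per kb, the mRNA genes 1850, 1471, 3106 and 198, and the tRNA genes 16.7, 39.3, 29.98 and 13.3. Over the 7 mRNA genes with at least 100 counts in each library, the values were 2510, 1993, 4210 and 268. In endogenous 1 this was above the rRNA density, so the order there rested on including the other mRNA genes, which had few counts. Nuclear rows together held 4.78, 5.20, 5.27 and 5.43 counts per kb of exon. Of the 37 genes 16, 22, 19 and 14 had at least 1 count, 9 had at least 100 counts in each library and 14 had 0 counts in all 4.

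The 13 mRNA genes fell into 2 groups with no value between them, and position in the genome separated them. The 6 mRNA genes from mt-Co2 to mt-Nd4l, which lie next to each other, never had more than 11 counts, whereas the other 7 had between 186 and 10511. These 6 genes and 5 tRNA genes lie wholly inside chrM:6390-11042 (GRCm38), a span of 4653 bases whose copy is annotated on chromosome 1. Nuclear copies of mitochondrial DNA are a known feature of mammalian genomes. There the annotation places 7 unprocessed pseudogenes, within chr1:24611535-24616197 on the minus strand, in the same order and at the same spacing as on chromosome M to within 1 base. The genes mt-Co1 and mt-Nd4 lie partly inside the span.

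The copies were nearly letter for letter. Gm28661 aligned with 681 of the 684 bases of mt-Co2 at 100% identity, Gm10925 with 678 of 681 bases of mt-Atp6, Gm28437 with 783 of 784 of mt-Co3 and Gm10222 with 294 of 297 of mt-Nd4l, each at 100%, and Gm28438 with 345 of 348 of mt-Nd3 at 99.7%. A second set of copies on chromosome 2 was less close, among them Gm13341 at 95.9% to mt-Co2. The first 90 bases of mt-Co2 are shown with both copies because reads of this stretch could not be placed by sequence between mt-Co2 and Gm28661. Capitals mark bases at which mt-Co2 (chrM:7013-7102, plus strand) and Gm13341 (chr2:22587873-22587962, minus strand) differ, 2 of 90, while Gm28661 (chr1:24615476-24615565, minus strand) has 0 differences from mt-Co2. All sequences are from GENCODE M21 transcripts of GRCm38, 5′ to 3′.
mt-Co2: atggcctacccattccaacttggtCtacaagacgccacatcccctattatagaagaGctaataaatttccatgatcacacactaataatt
Gm28661: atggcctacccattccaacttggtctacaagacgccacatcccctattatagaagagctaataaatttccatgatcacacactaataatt
Gm13341: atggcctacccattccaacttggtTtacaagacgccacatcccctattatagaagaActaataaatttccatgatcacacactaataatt

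The gene with the highest mRNA count of any library, mt-Cytb with 10511 in overexpressed 2, is the contrast. Its closest annotated copy, Gm11410 on chromosome 4, aligned with 1142 of its 1144 bases at 92.9% identity. The 90 bases from the second base of each are shown, chrM:14146-14235 and chr4:80003990-80004079, both on the plus strand, with the 5 differing bases in capitals.
mt-Cytb: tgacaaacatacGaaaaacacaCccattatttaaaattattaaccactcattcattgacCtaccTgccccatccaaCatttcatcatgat
Gm11410: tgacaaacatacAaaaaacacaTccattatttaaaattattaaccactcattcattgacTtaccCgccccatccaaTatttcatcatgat

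The share of each gene that occurs letter for letter in nuclear transcripts was then measured in windows of 50 bases on both strands, a length chosen without knowing the read length. In mt-Co2, mt-Atp6, mt-Co3, mt-Nd3 and mt-Nd4l between 98.0% and 100% of windows were shared, in mt-Nd4 62.2%, in mt-Co1 51.1%, in mt-Nd2 8.19% and in mt-Nd5 7.61%. In mt-Nd1, mt-Nd6 and mt-Cytb 0 windows were shared, and in the rRNA genes 0 of 906 (mt-Rnr1) and 16 of 1533 (mt-Rnr2). The count of 5 mRNA genes with over 90% of windows shared was the same with windows of 75 and of 100 bases. The gene mt-Atp8 had 0 shared windows but lies inside the copied span, mostly between the stretches that Gm28661 and Gm10925 match. Its last 43 bases, which mt-Atp6 shares, lie in the Gm10925 stretch and are shorter than a window of 50, and genome sequence outside annotated transcripts was not searched. No tRNA gene had a shared window. The copies of the shared genes were themselves counted: in the rows of the 7 chromosome 1 copies there were 183, 190, 228 and 27 counts, against 3, 24, 32 and 2 in the 6 mitochondrial mRNA genes inside the span.

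**Figure D2:**
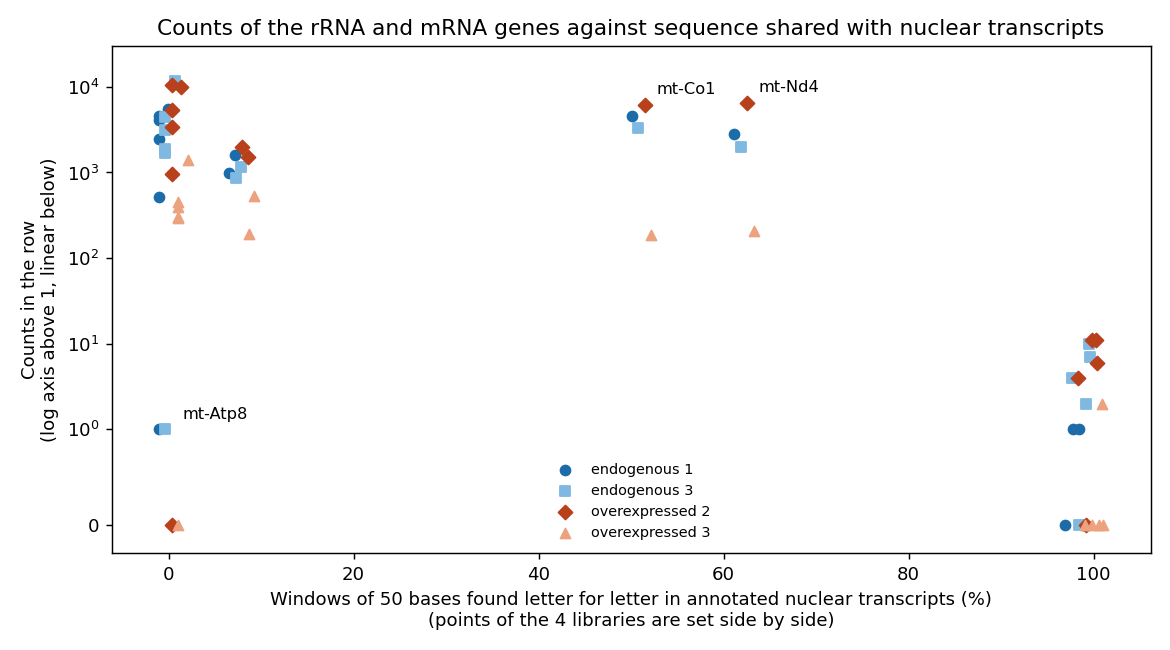
Counts in the rows of the 2 rRNA and 13 mRNA genes (vertical axis, log above 1 and linear below) against the percentage of their windows of 50 bases found in annotated nuclear transcripts, 1 point per gene and library. The 5 genes at 98.0% or more stay at 11 counts or fewer, mt-Co1 and mt-Nd4 with 51.1% and 62.2% reach 6168 and 6501, and mt-Atp8 is low at 0%.

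The chromosome 1 copies shared the low level of overexpressed 3 but rose less than the mitochondrial share in overexpressed 2. Relative to mitochondrial counts, the 7 chromosome 1 copies held 6.75, 6.32, 4.91 and 6.76 counts per 1000, so overexpressed 3 was low in the copies as well. Gm29216, whose last 483 bases match the end of mt-Co1 at 99.8%, had 53, 47, 72 and 7 counts, Gm28661 37, 53, 47 and 8, Gm10925 47, 30, 53 and 7, and Gm28437 42, 56, 51 and 5. The copies of mt-Nd3, mt-Nd4l and the start of mt-Nd4 had no more than 5 counts. On chromosome 2, Gm13340, which spans mt-Co1 at 97.6% identity, had 9, 24, 26 and 0 counts and Gm13341 23, 30, 46 and 5. Adding the 11 nuclear rows with at least 95% identity changed the mitochondrial share to 4.18%, 4.26%, 6.33% and 0.562%. The treatment of reads with several possible origins is not stated in the labels, and its part in the low counts of the 6 genes was not tested.

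**Figure D3:**
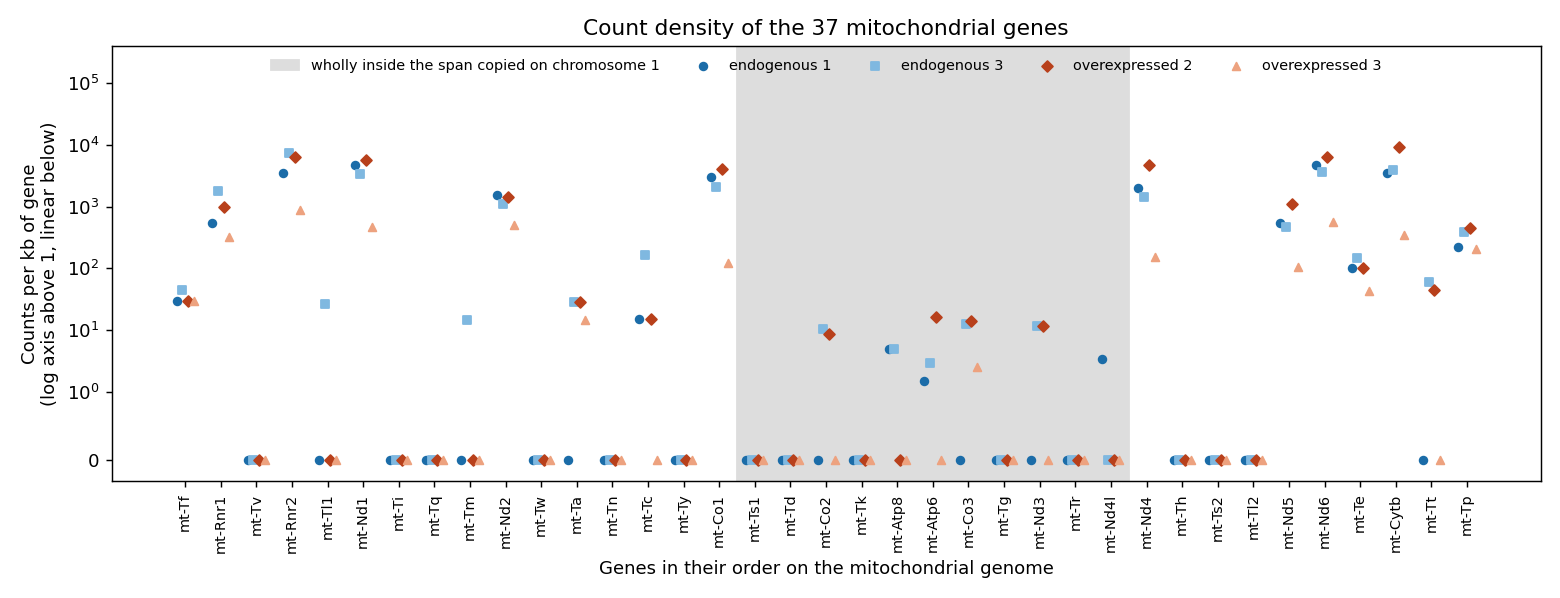
Counts per kb of gene (vertical axis, log above 1 and linear below) for the 37 genes in genome order, 1 point per library. Genes wholly inside the span copied on chromosome 1 (grey) stay below 17 counts per kb, while the abundant genes on either side reach 9188 in overexpressed 2.

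The 2 rRNA genes differed in density in every library. The large-subunit rRNA gene mt-Rnr2 (chrM:1094-2675) had 5466, 11540, 9978 and 1412 counts, ranking 7, 3, 7 and 47 among all rows of its library. Endogenous 3 was highest and overexpressed 3 lowest, so the groups overlapped. The small-subunit rRNA gene mt-Rnr1 (chrM:70-1024) had 521, 1697, 947 and 304 counts, again highest in endogenous 3 and lowest in overexpressed 3. Per kb mt-Rnr1 held 546, 1777, 992 and 318 counts and mt-Rnr2 3455, 7295, 6307 and 893. Of all 37 genes mt-Rnr2 was densest in endogenous 3 and overexpressed 3, whereas mt-Nd1 was densest in endogenous 1, at 4788 counts per kb, and mt-Cytb in overexpressed 2, at 9188. The ratio of mt-Rnr2 to mt-Rnr1 counts was 10.5 in endogenous 1 and overexpressed 2, but 6.80 in endogenous 3 and 4.64 in overexpressed 3. Both ribosomal RNAs come from the same primary transcript in textbook accounts. The tRNA gene between them, mt-Tv, had 0 counts in each library.

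Complex I, which takes electrons from NADH, has 7 subunits among the members, and together they held 58.9%, 54.1%, 52.8% and 74.1% of mitochondrial mRNA counts. The gene of the membrane subunit mt-Nd1 (chrM:2751-3707) had 4582, 3169, 5350 and 448 counts. In mt-Nd2 (chrM:3914-4951) there were 1618, 1159, 1500 and 529 counts, the smallest gap to overexpressed 3 of the 7 abundant mRNA genes. Endogenous 1 was highest in mt-Nd2 and overexpressed 2 in mt-Nd1, with overexpressed 3 lowest in both. The proton-pumping subunit gene mt-Nd4 (chrM:10167-11544) had 2783, 2004, 6501 and 207 counts and its neighbour mt-Nd5 (chrM:11742-13565) 988, 864, 2000 and 192. Overexpressed 2 exceeded both endogenous libraries in these 2 genes, while overexpressed 3 lay below both. Per kb mt-Nd5 held 542, 474, 1096 and 105 counts, a lower density than mt-Nd4 in each library although they share a transcript.

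The minus-strand mRNA gene mt-Nd6 (chrM:13552-14070) had 2459, 1883, 3359 and 296 counts, or 4738, 3628, 6472 and 570 per kb. Its density was above that of mt-Nd5, with which it shares 14 bases on the opposite strand, in each library. The labels do not say whether counting used strand, and without it reads of mt-Nd6 and antisense reads cannot be told apart. The remaining complex I genes, mt-Nd3 with 0, 4, 4 and 0 counts and mt-Nd4l with 1, 0, 0 and 0, lie in the copied span.

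The boundary of the copy runs through mt-Nd4, whose first 876 bases match Gm28439 at 100%. The 60 bases around it (chrM:11013-11072, plus strand) are shown, with bases past the end of Gm28439 in capitals.
mt-Nd4: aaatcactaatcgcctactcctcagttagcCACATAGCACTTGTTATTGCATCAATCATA
Of the 1329 windows of 50 bases in mt-Nd4, 502 were not shared with a nuclear transcript, and of 1496 in mt-Co1, 731 were not. Counts per 1000 unshared windows were 5544, 3992, 12950 and 412 in mt-Nd4, 6282, 4468, 8438 and 254 in mt-Co1 and 3718, 4026, 9599 and 363 in mt-Cytb. On this scale the 3 genes lay within a factor of 2 of each other in each library, and overexpressed 2 was highest in all 3 of them. The other abundant mRNA genes ranged more widely. Values were 602, 527, 1220 and 117 in mt-Nd5, and 1782, 1276, 1652 and 583 in mt-Nd2. They were 5046, 3490, 5892 and 493 in mt-Nd1, and 5232, 4006, 7147 and 630 in mt-Nd6. The part of shared sequence in these counts was not tested.

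Complex III, which passes electrons to cytochrome c, has 1 mitochondrially encoded subunit, mt-Cytb (chrM:14145-15288). It had 4071, 4409, 10511 and 397 counts. The endogenous libraries were close to each other, at 6224 and 6190 CPM (counts scaled to the same library total), and overexpressed 2 and 3 lay on either side at 14254 and 555. In overexpressed 2 it took 22.7% of mitochondrial counts, against 15.0% and 14.7% with endogenous miR-125a and 9.94% in overexpressed 3.

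Complex IV, the oxidase that reduces oxygen, was represented almost wholly by its catalytic subunit gene mt-Co1 (chrM:5328-6872), with 4592, 3266, 6168 and 186 counts. Of the 9 abundant genes it had the widest gap to overexpressed 3. Complex IV took 21.8%, 19.6%, 17.5% and 8.33% of mitochondrial mRNA counts. The other 2 subunit genes lie in the copied span, mt-Co2 (chrM:7013-7696) with 0, 7, 6 and 0 counts and mt-Co3 (chrM:8607-9390) with 0, 10, 11 and 2. In these 2 genes endogenous 1, with a mitochondrial share of 4.14%, was as low as overexpressed 3.

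ATP synthase, complex V, had next to no counts. Its proton-channel subunit gene mt-Atp6 (chrM:7927-8607) had 1, 2, 11 and 0 counts, and mt-Atp8 (chrM:7766-7969) 1, 1, 0 and 0. The 2 reading frames overlap by 43 bases (chrM:7927-7969, plus strand), shown because reads inside them belong to both genes. Capitals mark the start codon of mt-Atp6 and the stop codon of mt-Atp8.
mt-Atp8 and mt-Atp6 overlap: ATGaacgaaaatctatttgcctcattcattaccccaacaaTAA

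**Figure D4:**
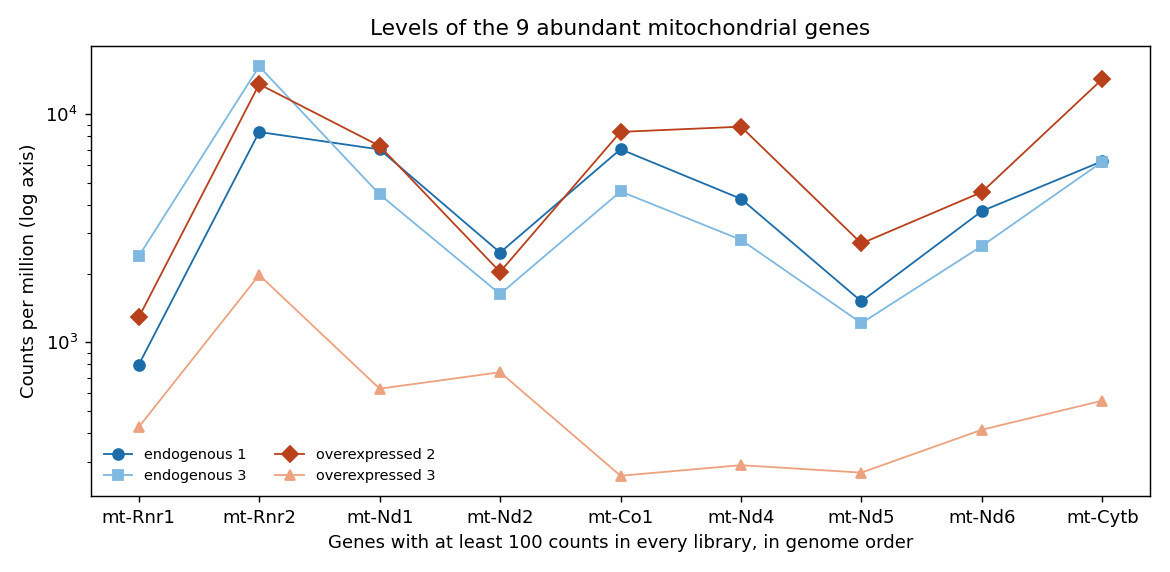
CPM (log axis) of the 9 mitochondrial genes with at least 100 counts in every library, in genome order, 1 line per library. Overexpressed 3 is lowest for all 9, overexpressed 2 is highest for 6, endogenous 3 for the 2 rRNA genes and endogenous 1 for mt-Nd2.

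The gap between overexpressed 3 and the other libraries was uneven over the 9 abundant genes. Mean CPM of the other 3 libraries exceeded those of overexpressed 3 by 25.6 times for mt-Co1, 18.3 for mt-Nd4 and 16.03 for mt-Cytb. The ratio was 9.97 for mt-Nd1, 8.83 for mt-Nd6, 6.76 for mt-Nd5 and 6.44 for mt-Rnr2. It was lowest for mt-Rnr1 at 3.50 and mt-Nd2 at 2.77. Within the endogenous group the same genes also moved apart: CPM in endogenous 3 were 2.99 and 1.94 times those of endogenous 1 for mt-Rnr1 and mt-Rnr2, but 0.635 to 0.995 times for the 7 abundant mRNA genes. These 2 libraries had nearly the same total share, 4.14% and 4.22%.

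Of the 22 tRNA genes, 59 to 75 bases long, 8 had a count in any library and 14 had 0 in all 4, which allows up to 3 counts or 4.07 to 4.59 CPM. At 0 were mt-Tv, mt-Ti, mt-Tq, mt-Tw, mt-Tn, mt-Ty, mt-Th, mt-Ts2, mt-Tl2 and, inside the copied span, mt-Ts1, mt-Td, mt-Tk, mt-Tg and mt-Tr. Minus-strand tRNA genes, 8 of 22, held 23, 49, 40 and 18 of the 25, 59, 45 and 20 tRNA counts. As for mt-Nd6, the strand setting is not stated, so antisense reads cannot be told apart from reads of these genes. The proline tRNA gene mt-Tp led with 15, 26, 30 and 14 counts, followed by the glutamate tRNA gene mt-Te with 7, 10, 7 and 3 and the cysteine tRNA gene mt-Tc with 1, 11, 1 and 0. In mt-Tp overexpressed 3 was within 1 count of endogenous 1, and the mean of the other 3 libraries was 1.71 times higher in CPM. The other 5 detected, mt-Tf, mt-Ta, mt-Tt, mt-Tl1 and mt-Tm, had no more than 4 counts in a library. The 3 leading tRNAs are shown with the anticodon in capitals: mt-Tp lies at chrM:15356-15422, mt-Te at chrM:14071-14139 and mt-Tc at chrM:5192-5257, all on the minus strand.
mt-Tp: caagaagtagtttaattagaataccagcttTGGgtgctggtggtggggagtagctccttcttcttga
mt-Te: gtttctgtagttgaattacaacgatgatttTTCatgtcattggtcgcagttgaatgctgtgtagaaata
mt-Tc: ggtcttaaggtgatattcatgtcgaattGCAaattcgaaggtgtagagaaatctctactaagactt
Transfer RNAs are shorter than the fragments that cDNA kits for long RNA usually keep. Of the 36 neighbouring pairs of genes, 9 overlapped and 12 abutted with no base between, so a read that covers a tRNA gene will often reach into its neighbour.

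The comparison of overexpressed with endogenous miR-125a found no mitochondrial gene that differed beyond the spread between libraries. Of the 37 genes 11 passed the filter on low counts and were tested: both rRNA genes, the 7 abundant mRNA genes, mt-Co3 and mt-Tp. By edgeR's quasi-likelihood test 0 of these 11 had a Benjamini-Hochberg adjusted p under 0.05, where 0% of all 10808 tested rows did, and 0 of 11 had an unadjusted p under 0.05, where 5.24% of tested rows did. DESeq2 called 0 of 11, against 1.4% of tested rows, edgeR's likelihood ratio test 0 of 11, against 0.777%, and limma-voom 0 of 11, against 0%. The log2 fold, overexpressed over endogenous, was positive for 5 and negative for 6 of the 11, with a median of -0.07 against -0.01 over all tested rows. Under limma-voom with quality weights 2 were positive and 9 negative, with a median of -0.89 against -0.02, and the fold of mt-Co1 was -1.72 where edgeR gave -0.13. The largest were 0.67 ± 1.44 (SE) for mt-Nd4, 0.57 ± 1.37 for mt-Cytb and -0.57 ± 0.93 for mt-Rnr1, with adjusted p from 0.973 to 0.997 over the 11 by edgeR's test. In 0 of 11 did the CPM of the 2 groups lie apart, as they did in 35.2% of tested rows.

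The direction of the folds depended on single libraries. Without overexpressed 3, 11 of 11 genes had positive log2 folds, with a median of 0.82, and without overexpressed 2, 11 of 11 had negative ones, with a median of -2.51. The fold of mt-Co1 was 0.84 without overexpressed 3 and -4.40 without overexpressed 2, and that of mt-Cytb 1.53 and -3.39. With 1 overexpressed library left, that library was assumed to vary like the other group, and 0 of 11 genes passed in either fit. With no filter on low counts 23 genes were tested and 0 passed edgeR's quasi-likelihood test, where 1.78% of all rows did, while 2 had an unadjusted p under 0.05, mt-Tc and mt-Atp6, against 6.09% of all rows. Each of these rests on 11 counts in 1 library.

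**Figure D5:**
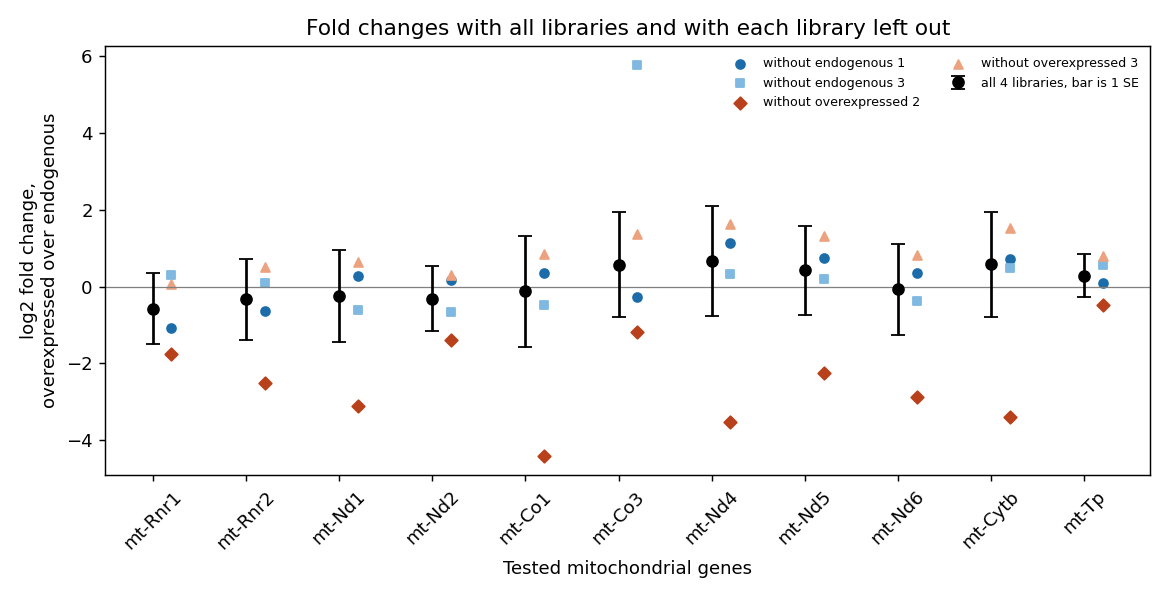
Log2 fold change, overexpressed over endogenous, for the 11 tested genes (black, bar is 1 SE) and with each library left out (coloured). Leaving out overexpressed 2 puts all 11 below 0, leaving out overexpressed 3 puts all 11 above 0.

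The authors' deposited table of 17039 rows holds 13 mitochondrial rows, and none of these 13 had an FDR under 0.05, where 2.37% of its rows did. Of the 400 genes in the authors' deposited table of called genes, 0 were mitochondrial. In the authors' deposited table mt-Te had the smallest p of the 13, 0.382, and the FDR was 0.9997 for each. Its folds ran the other way round, endogenous over overexpressed, as read from the counts: all of its 816 rows with a log2 fold beyond 2 in size had that sign.

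Nuclear genes that serve the mitochondrial genome were compared in the same fit, from 5 lists. None passed edgeR's quasi-likelihood test. The 10 genes named below were picked as the 2 with the smallest p in each list. With no filter on low counts 5 of these 10 passed that test, where 1.78% of all rows did. Because the pick by p favours such passes, the 5 of 10 say nothing about the lists. Adjusted p by that unfiltered test were 0.0299 for Hsd17b10, 0.00138 for Iars2, 0.000786 for Mrpl42, 0.000707 for Ndufc1 and 0.00207 for Cox6a1. Genes for transcription and replication of mitochondrial DNA numbered 23, of which 6 passed the filter, with 2 positive and 4 negative log2 folds (median -0.15). Of 33 genes that process or stabilise its RNA 13 were tested, 8 higher and 5 lower (median 0.14), of 34 translation factors and tRNA synthetases 14, 8 higher and 6 lower (median 0.08), and of 78 mitochondrial ribosomal protein genes 20, 11 higher and 9 lower (median 0.07). The median over all 10808 tested rows was -0.01. An unadjusted p under 0.05 by edgeR's test was reached by 1 of 6, 1 of 13, 1 of 14 and 6 of 20, where 5.24% of tested rows reached it.

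The gene with the smallest p in the first list was Polrmt, the polymerase that transcribes the mitochondrial genome. It had 6 and 7 counts with endogenous and 28 and 22 with overexpressed miR-125a. The groups did not overlap, as in 35.2% of tested rows. Its log2 fold was 2.06 ± 0.44 (SE), with an adjusted p of 0.814 by edgeR's quasi-likelihood test, 0.0489 by its likelihood ratio test and an FDR of 0.0893 in the authors' deposited table. The fold ran from 1.78 to 2.31 with 1 library left out, while the genes it transcribes, as above, had no common direction. The DNA ligase gene Lig3 had 10, 18, 4 and 8 counts (-1.07 ± 0.53).

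Among RNA processing genes, Hsd17b10, a subunit of mitochondrial RNase P, had 14 and 9 against 119 and 34 counts. Its log2 fold was 2.87 ± 0.87, and DESeq2 called it at an adjusted p of 0.0261 while edgeR's quasi-likelihood test gave 0.845. Trmt10c, another subunit of that enzyme, had 10, 47, 9 and 12 counts (-1.24 ± 0.68), and its fold was 0.04 without endogenous 3. Among translation genes Iars2, the isoleucine tRNA synthetase, had 679, 68, 12 and 13 counts (-4.89 ± 1.37) and Mars2, the methionine tRNA synthetase, 31, 11, 6 and 6 (-1.72 ± 0.71). DESeq2 called Iars2 at an adjusted p of 0.0011, and its FDR in the authors' deposited table was 0.0104. Most of its counts came from endogenous 1, and its fold ran from -5.78 to -2.12 with 1 library left out.

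The ribosomal protein gene Mrpl42 had 64 and 162 counts with endogenous and 3 and 8 with overexpressed miR-125a. Its log2 fold was -4.17 ± 0.80, with an adjusted p of 0.814 by edgeR's quasi-likelihood test, and it ran from -4.91 to -3.56 with 1 library left out. DESeq2 and edgeR's likelihood ratio test called it, the latter at an adjusted p of 0.00761, and in the authors' deposited table its FDR was 0.00947. Mrpl32 had 12, 22, 3 and 5 counts (-1.91 ± 0.53).

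The sums of the nuclear lists did not follow the mitochondrial share. Mitochondrial ribosomal protein genes took 0.0682%, 0.242%, 0.210% and 0.0603% of counts, and 85 nuclear genes of the respiratory chain 0.108%, 0.256%, 0.234% and 0.0837%. Both lists were low in overexpressed 3, but endogenous 1, with 4.14% mitochondrial counts, was nearly as low. The remaining lists did not set overexpressed 3 apart. Transcription and replication genes took 0.0203%, 0.0261%, 0.0212% and 0.0214%, and RNA processing genes 0.0605%, 0.0796%, 0.0598% and 0.0587%. Translation genes took 0.185%, 0.112%, 0.0725% and 0.100%, lowest in overexpressed 2. Cytosolic ribosomal protein genes, 83 in all, took 0.361%, 0.519%, 0.517% and 0.220%, also lowest in overexpressed 3. The erythroid markers given above were lowest in that library as well, with Hba-a1, Hbb-bt and Slc4a1 at 0, and the part of any of these in its mitochondrial counts was not tested. Without its 3 largest members, among them Mrpl3 and Mrpl17, the mitochondrial ribosomal protein list stood at 0.0641%, 0.186%, 0.0681% and 0.0577%, so the level in overexpressed 2 came mostly from 3 genes. The respiratory chain list without its 3 largest members stood at 0.0667%, 0.188%, 0.154% and 0.0663%.

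Among the 85 nuclear respiratory chain genes 30 passed the filter, with 21 positive and 9 negative log2 folds and a median of 0.25. In this list 0 passed by edgeR's quasi-likelihood test. Where 5.24% of tested rows had an unadjusted p under 0.05 by that test, 2 of the 30 did. These were the complex I subunit gene Ndufc1, with 11 and 26 against 1 and 1 counts, and the complex IV subunit gene Cox6a1, with 20 and 43 against 6 and 0. In the authors' deposited table their FDR was 0.00219 and 0.00642. Both nuclear genes were lower in value with overexpression in each library. They were picked for the smallest p in the list, and the groups lay apart in 35.2% of tested rows. For the mitochondrially encoded mt-Nd1 and mt-Co1, which were not picked by p, the groups overlapped.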

How the data were processed

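RNA of sorted mouse bone marrow cells was sequenced with a low-input kit. FastQC 0.11.8, STAR, edgeR 3.24.3 and mm10 appear in the submitters' processing notes. The version of STAR, the counting program, its annotation and its strand setting are not stated. The authors deposited raw counts, whole numbers for each gene. Per the file headers, the authors also deposited edgeR log2 fold changes and mean log2 CPM, p-values with FDR, and a likelihood ratio and signed score. Of 6 labelled libraries, 4 were analysed, so the tests were run as 2 against 2. Count columns were matched to samples by the sample numbers in the labels. All 55450 identifiers matched GENCODE M21.

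Counts were fitted with edgeR 4.0.16 in R 4.3.3 over all rows passing filterByExpr, with TMM factors, by the quasi-likelihood F test at an adjusted p under 0.05. CPM values use library totals. Each SE was derived from the fold and its F statistic. DESeq2 1.42.0 and limma 3.58.1 were alternatives. The fit was tested on simulated data. Nuclear copies were searched with BLAST+ 2.17.0 (word size 11) in GENCODE transcripts, at 85% identity or more over at least 100 bases. This search was chosen after the counts were seen. Members and gene lists were chosen with earlier results of these data known. All rRNA and mRNA genes are named, tRNA genes by counts, nuclear copies where a library held at least 10 counts or, chosen after their values were seen, to complete the chromosome 1 span and for mt-Cytb, and from each list the 2 genes with the smallest p.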

Additional observations from a re-analysis of the deposited data

How the results depend on the processing

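No mitochondrial gene was called under another test, scaling or filter or with any 1 library left out. Over all rows, the edgeR quasi-likelihood test called 0, and 822 with no low-count filter, DESeq2 151 and the edgeR likelihood ratio test 84. With 1 library left out, the difference in mitochondrial share ran from -3.63 to 2.11 percentage points, in rRNA share of mitochondrial counts from -10.8 to 11.2, in mRNA share from -11.4 to 10.6 and in tRNA share from -0.0472 to 0.357. The log2 folds of all 11 tested mitochondrial genes changed sign in this way: mt-Rnr1 from -1.76 to 0.29, mt-Rnr2 from -2.51 to 0.50, mt-Nd1 from -3.12 to 0.65, mt-Nd2 from -1.39 to 0.30, mt-Co1 from -4.40 to 0.84, mt-Co3 from -1.18 to 5.76, mt-Nd4 from -3.53 to 1.63, mt-Nd5 from -2.26 to 1.31, mt-Nd6 from -2.87 to 0.82, mt-Cytb from -3.39 to 1.53 and mt-Tp from -0.49 to 0.79. The 5.76 of mt-Co3 came without endogenous 3, with 0 counts in endogenous 1 against 11 and 2 with overexpression. The log2 fold of Trmt10c ran from -1.84 to 0.04. Under limma-voom with quality weights the folds of mt-Nd4, mt-Nd5 and mt-Cytb were -0.89, -0.44 and -0.92, and the cause was not tested. Scaling by library totals only, which moved the median of all tested rows by -0.28, gave -0.06 for mt-Tp. No paired analysis was possible because the analysed libraries of the 2 groups share a single replicate number. Genes with few counts, as most tRNA genes here, are limited by depth.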
